A study of Drosophila melanogaster with 2 samples.

Results

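Sites of the corepressor Groucho (gro) at promoters belonging to a single gene were examined in Drosophila melanogaster embryos. They were taken from the authors' reproducible peaks, which were selected by the irreproducible discovery rate (IDR) and are called IDR peaks here. A peak was kept when its summit fell no more than 500 bp from a transcription start site (TSS) of exactly 1 protein-coding gene and all TSSs of other protein-coding genes were more than 1 kb away. Position alone chose the sites among the IDR peaks. The IDR list itself held the 4492 pooled regions with the highest signal, so each site had passed that cut. It kept 1554 of the 4492 IDR peaks (34.6%), at 1365 genes. Of the 2697 peaks with a coding TSS inside 500 bp, 839 had TSSs of several genes inside that distance and 304 had another gene's TSS inside 1 kb. Those 1143 peaks are called shared-promoter sites, and the other 1795 IDR peaks are called peaks elsewhere. RefSeq models in place of the Ensembl models gave 1554 sites and 1365 genes as well.

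The series holds 1 group. Chromatin came from whole embryos aged 0 to 24 h, of both sexes together, of a stable transgenic line in which gro carries GFP at its C-terminus. It was cut by sonication into fragments of 200 to 800 bp, and an antibody against GFP was used for the precipitation, in 2 biological replicates that the labels number 1 and 3. The labels do not name the promoter that drives the fusion, and no untagged line or other group was analysed here. A strong signal from few cells and a weak one from many cannot be told apart in whole embryos.

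Groucho has no sequence-specific DNA-binding domain of its own. DNA-binding repressors such as the Hairy and E(spl) proteins bring it to their targets through short peptide motifs, and it acts through histone deacetylases and contacts with the transcription machinery. In the embryo it is known for its part in segmentation, dorsal-ventral patterning, neurogenesis and the outputs of the Notch, Wingless, Dpp and EGFR pathways. In the compact fly genome neighbouring genes often share a promoter region, so a site with only 1 gene near by is the simplest case for pairing a site with a gene.

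The sequences below show what the summits of some of the strongest sites look like and which promoter motifs some of them hold. Each is 121 bases of the RefSeq Release 6 (dm6) genome with the summit in the middle, read in the direction of the gene, and none overlaps an annotated exon. Capitals mark GAGAG or its complement CTCTC (the GAGA element, bound by GAGA factor), TATAAA or TTTATA (the TATA box letters), TATCGATA (the DNA replication-related element, DRE, bound by Dref) and GTCACACT (core promoter motif 1, bound by M1BP). The windows are at chr3L:19590556-19590676 on the minus strand for CG14100, chr3R:28326546-28326666 on the minus strand for larp, chrX:2137268-2137388 on the minus strand for ph-p and chr3R:26042447-26042567 on the plus strand for gro. Those of CG18549, Gapdh2 and nebu are at chr3R:12449113-12449233 on the plus strand, chrX:15867929-15868049 on the plus strand and chr3L:12843197-12843317 on the minus strand. Those of Abl and nrv1 are at chr3L:16647921-16648041 on the minus strand and chr2L:6787244-6787364 on the minus strand; both were picked after their values were seen, to show a DRE and a motif 1.
CG14100: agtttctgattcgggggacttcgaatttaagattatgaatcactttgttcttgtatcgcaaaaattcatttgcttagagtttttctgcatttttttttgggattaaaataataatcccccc
larp: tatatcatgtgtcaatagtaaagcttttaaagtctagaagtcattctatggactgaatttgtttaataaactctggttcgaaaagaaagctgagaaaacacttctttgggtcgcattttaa
ph-p: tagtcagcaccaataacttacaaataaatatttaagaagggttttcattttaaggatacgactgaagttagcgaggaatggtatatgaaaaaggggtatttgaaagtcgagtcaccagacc
gro: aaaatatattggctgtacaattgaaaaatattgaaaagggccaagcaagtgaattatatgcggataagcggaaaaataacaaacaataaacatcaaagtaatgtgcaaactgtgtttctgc
CG18549: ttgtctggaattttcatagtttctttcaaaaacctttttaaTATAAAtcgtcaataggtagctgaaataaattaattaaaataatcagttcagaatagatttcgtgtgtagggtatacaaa
Gapdh2: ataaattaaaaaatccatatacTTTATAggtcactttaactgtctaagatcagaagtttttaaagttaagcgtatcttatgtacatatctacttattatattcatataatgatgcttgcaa
nebu: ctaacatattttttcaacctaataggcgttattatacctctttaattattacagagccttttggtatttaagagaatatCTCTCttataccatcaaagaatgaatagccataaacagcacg
Abl: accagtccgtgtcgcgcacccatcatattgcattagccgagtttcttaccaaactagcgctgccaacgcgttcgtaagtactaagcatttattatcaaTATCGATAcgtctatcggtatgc
nrv1: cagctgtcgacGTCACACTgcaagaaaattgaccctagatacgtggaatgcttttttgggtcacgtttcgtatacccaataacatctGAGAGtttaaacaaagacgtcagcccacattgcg
The windows of CG14100, larp, ph-p and gro held none of the marked letters. Their GC content was 32.2%, 31.4%, 35.5% and 31.4%. The Abl window, with its DRE, had 45.5% GC, and the nrv1 window had 44.6%.

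The highest of these sites was at CG14100, with a pooled signal of 1604 and its summit at -92 bp. Distances are from the TSS to the summit along the gene, negative upstream. The signal is the authors' deposited value, whose scale is not stated, and is used to describe and rank sites. CG14100 had a signal of 590 in replicate 1 and 1016 in replicate 3, on the replicates' own scale (803 ± 301, SD, n = 2). It was the only one of the 20 highest sites within 100 bp upstream of its TSS.

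Next came px (plexus, a wing vein gene) with a pooled signal of 1004 at -203 bp and CG1888 with 1001 at -228 bp. The RNA-binding protein gene larp followed with 985 at -342 bp and ph-p, a Polycomb group subunit, with 968 at -473 bp. In replicates 1 and 3, px had 382 and 615, CG1888 had 387 and 617, larp had 355 and 630 and ph-p had 332 and 651. GstE13, a glutathione S-transferase gene, had 828 at 55 bp and was the only one of the 20 highest with its summit downstream of the TSS. CG31145 (791) and CG18549 (714) followed. Of the 20 highest sites, 18 had the summit more than 100 bp upstream and all 20 were higher in replicate 3 than in replicate 1.

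The other 12 of the 20 included transcription factor genes and enzymes. Sox14, an HMG-box factor, had a pooled signal of 713 at -260 bp, and Atf3, a bZIP factor, had 681 at -231 bp. The gro gene itself had 682 at -134 bp of an internal TSS, with 303 in replicate 1 and 373 in replicate 3 (338 ± 49.1, SD, n = 2). A second site at the most upstream gro TSS, at -61 bp, had a pooled signal of 293, with 136 in replicate 1 and 157 in replicate 3. The line carries a gro fusion, and whether that affects signal at gro was not tested. The prohormone convertase gene amon had 648, the transporter gene MFS10 had 604, CG1635 had 601 and Hpf1, a partner of the PARP enzyme, had 589. The glycolytic gene Gapdh2 had 579, nebu 546, the cAMP phosphodiesterase gene dnc 533, and the kinase genes gish and Nuak 530 and 527. For 12 of these 20 sites the TSS was the most upstream of its gene.

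Single-gene sites had signals close to those of Groucho peaks in general. Their median pooled signal was 117 (95% interval of the median, 114 to 119; quartiles 96.4 and 157), against 122 (118 to 125) at shared-promoter sites and 116 (115 to 118) over all IDR peaks. Sites of the rule were 8 of the 25 highest and 36 of the 100 highest IDR peaks. Intervals here and below cover counting error alone, and the regions of 1 list are not replicates. The files hold no read counts, so depth is unknown.

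The summits lay mostly upstream of the TSS, and the strongest lay farther upstream than the rest. Of 1554 summits, 1050 (67.6%) were upstream, 501 (32.2%, Wilson 95% interval 30.0 to 34.6%) downstream and 3 at the TSS base itself. The median signed distance was -52 bp, with quartiles of -165 and 21.8 bp. In all, 852 sites (54.8%) were within 100 bp of the TSS, 569 (36.6%, 34.3 to 39.0%) more than 100 bp upstream and 133 (8.56%) more than 100 bp downstream.

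Position differed mainly in the highest quartile of signal. In the highest quartile by pooled signal 203 of 389 sites (52.2%) were more than 100 bp upstream, against 137 of 389 (35.2%) in the lowest, a difference of 17.0 percentage points (Newcombe 95% interval 10.01 to 23.7). The middle quartiles had 28.4% and 30.7%. With sites ranked by replicate 1 alone the shares were 47.5% (42.6 to 52.5%) in the highest and 36.7% (32.0 to 41.6%) in the lowest quartile, and by replicate 3 alone 57.9% (52.9 to 62.7%) and 25.8% (21.7 to 30.4%). Middle quartiles had 29.5% and 33.4% by replicate 1, and 30.2% and 33.2% by replicate 3. Of the 79 sites with a signal of 300 or more, 76 were upstream and 3 downstream. By bins of 100 bp the median signal was highest 300 to 200 bp upstream, at 134. It was 116 for summits 500 to 400 bp upstream and 110 for those in the first 100 bp downstream. Mean GC content in the 201 bp around the summit was 39.98 ± 7.21% in the highest quartile and 43.0 ± 7.66% in the lowest (SD over 389 sites each). It was 42.7% and 42.6% in the middle quartiles, and its part was not tested.

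**Figure D1:**
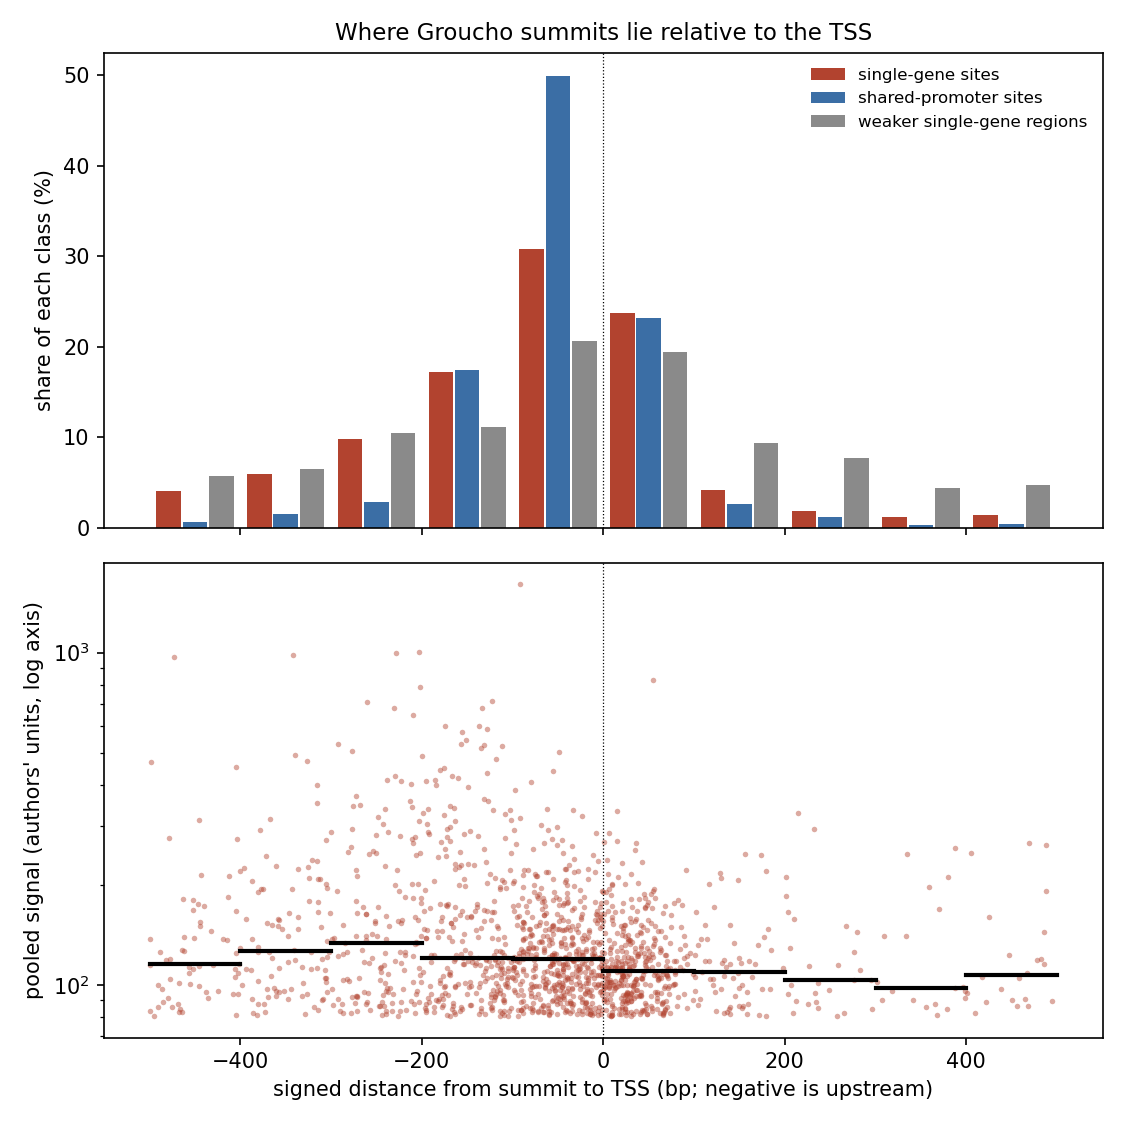
The upper panel shows the share of each class (%) by signed distance from summit to TSS in bins of 100 bp, for single-gene sites, shared-promoter sites and weaker single-gene regions. The lower panel shows the pooled signal (log axis) of each single-gene site, with the median of each bin as a bar. Of the 79 sites with a signal of 300 or more, 76 lie left of the TSS.

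Neighbouring sets give these positions a scale. The pooled list held 6085 regions at single-gene promoters, of which the 1554 sites (25.5%) were on the IDR list; at shared promoters the share on the list was 33.9%, elsewhere 8.74% and over all 30000 pooled regions 15%. The other 4531 regions at single-gene promoters are called weaker regions. Sites on the list were less often downstream than weaker regions, with 32.2% against 45.6%, a difference of -13.3 points (-16.0 to -10.5). They were more often within 100 bp of the TSS, with 54.8% against 40.1%, a difference of 14.7 points (11.8 to 17.5). Signal chose which regions are on the list, so these differences describe how position varies with signal across the pooled list. Of the pooled regions 100 to 200 bp upstream 34.5% were on the list, and of those 200 to 300 bp downstream 7.45%.

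Set against shared-promoter sites, single-gene sites were farther from the TSS. The median distance was 86 bp (78 to 92) at single-gene sites and 57 bp (54 to 62) at shared ones, and 36.6% against 22.0% were more than 100 bp upstream, a difference of 14.6 points (11.1 to 17.9). Shared promoters have TSSs of several genes near by, so the distance to the nearest is shorter there by construction.

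Within the gene models, 698 summits (44.9%) were outside the gene, 499 (32.1%) in a 5′ UTR, 343 (22.1%) in an intron, 13 in coding sequence and 1 in a 3′ UTR. Because many fly genes have alternative promoters, 538 sites (34.6%) were nearest to a TSS other than the most upstream one of their gene. The median signal was 117 for those sites and 117 for the 1016 sites at the most upstream TSS. The region covered its TSS at 1121 sites (72.1%). A noncoding gene had a TSS within 1 kb at 162 sites (10.4%), which the rule does not bar, and 125 summits (8.04%) lay inside the span of another coding gene. The next coding TSS was a median of 3286 bp away.

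Genes with several promoters and long genes held sites more often. Of 13945 protein-coding genes, 10259 had a TSS at which the rule could be met, and 1365 of these eligible genes (13.3%) had a site. The share was 8.58% (7.95 to 9.24%) of 7207 genes with 1 TSS, 18.9% (17.2 to 20.6%) of 1983 with 2, 32.3% (29.3 to 35.4%) of 880 with 3 or 4 and 47.1% (40.1 to 54.2%) of 189 with 5 or more. More TSSs give more places for a site, and counted per TSS the share was 8.57% of TSSs in genes with 1 and 13.9% (11.96 to 16.2%) in genes with 5 or more. Over all eligible genes 1491 of 14277 TSSs (10.4%) had a site nearest to them.

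Gene length went the same way. The median span was 6062 bp for genes with a site and 2092.5 bp for eligible genes without. Among genes with 1 TSS alone, 187 of 1035 in the longest quartile by span (18.1%, 15.8 to 20.5%) had a site, against 67 of 2391 in the shortest (2.80%, 2.21 to 3.54%). The arms differed little, with shares of eligible genes from 10.96% on arm 4 to 14.5% on 3L.

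Some genes held several sites. In all, 153 genes had more than 1 site, 342 sites together, and 63 TSSs had more than 1 site nearest to them. Rtnl1, which encodes a reticulon-like protein of the endoplasmic reticulum, had 5 sites, each nearest to another of its 7 TSSs. Their pooled signals were 506, 344, 188, 92.7 and 89.8. The genes larp, dnc, Ptpmeg2 (a tyrosine phosphatase) and bun (a TSC-22 family factor) had 4 each, as did ps, cnc and lola, whose highest signals were 171, 169 and 125. The larp sites had 985, 155, 154 and 83.6, and the 4 dnc sites had 533, 293, 179 and 145. The dnc sites of 293 and 145 were nearest to the same TSS and shared their replicate 3 region. Ptpmeg2 had 442, 269, 127 and 109, whereas bun had no site over 213. In larp 1 site stood far above the others, and in the other genes the signals were more evenly graded. Of all sites, 120 overlapped another site of the set, and 126 shared their replicate 1 region with another and 120 their replicate 3 region, so such sites are not separate measurements in a replicate.

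Replicate 3 gave the higher value at most sites, and at a larger share of those more than 100 bp upstream than of those within 100 bp. Of 1547 sites found in both replicate lists, 923 (59.7%, 57.2 to 62.1%) were higher in replicate 3, against 65.6% of shared-promoter sites, a difference of -5.97 points (-9.64 to -2.27), and 67.4% of peaks elsewhere. The median signal was 60.6 in replicate 1 and 62.4 in replicate 3. More than 100 bp upstream 416 of 569 sites (73.1%, 69.3 to 76.6%) were higher in replicate 3, with a median ratio of 1.30. Within 100 bp of the TSS 438 of 846 (51.8%, 48.4 to 55.1%) were, with a median ratio of 1.01, and more than 100 bp downstream 69 of 132 (52.3%, 43.8 to 60.6%), with a median ratio of 1.06. The few sites farthest downstream had ratios like those upstream: the median log2 ratio of replicate 3 to replicate 1 was 0.42 at 19 sites 300 to 400 bp and 0.43 at 22 sites 400 to 500 bp downstream, against 0.31 to 0.43 in the bins of 100 bp beyond 100 bp upstream and -0.10 at 100 to 200 bp downstream. The difference between sites more than 100 bp upstream and those within 100 bp was 21.3 points (16.3 to 26.2).

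The upstream share was the higher one in each quartile of signal, and the gap was widest in the highest. There 187 of 203 upstream sites (92.1%, 87.6 to 95.1%) were higher in replicate 3, against 106 of 160 within 100 bp (66.2%, 58.6 to 73.1%). In the lowest quartile the shares were 56.9% upstream and 45.8% within 100 bp, and their intervals overlapped. Mean GC content was 36.7% at the upstream sites of the highest quartile and 43.9% at those within 100 bp; its part in the replicate difference was not tested. Shared-promoter sites more than 100 bp upstream were higher in replicate 3 at 74.4%, a difference of -1.29 points from single-gene sites (-7.57 to 5.43). Within 100 bp the shares were 51.8% of single-gene and 63.3% of shared-promoter sites, a difference of -11.5 points (-16.2 to -6.82).

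**Figure D2:**
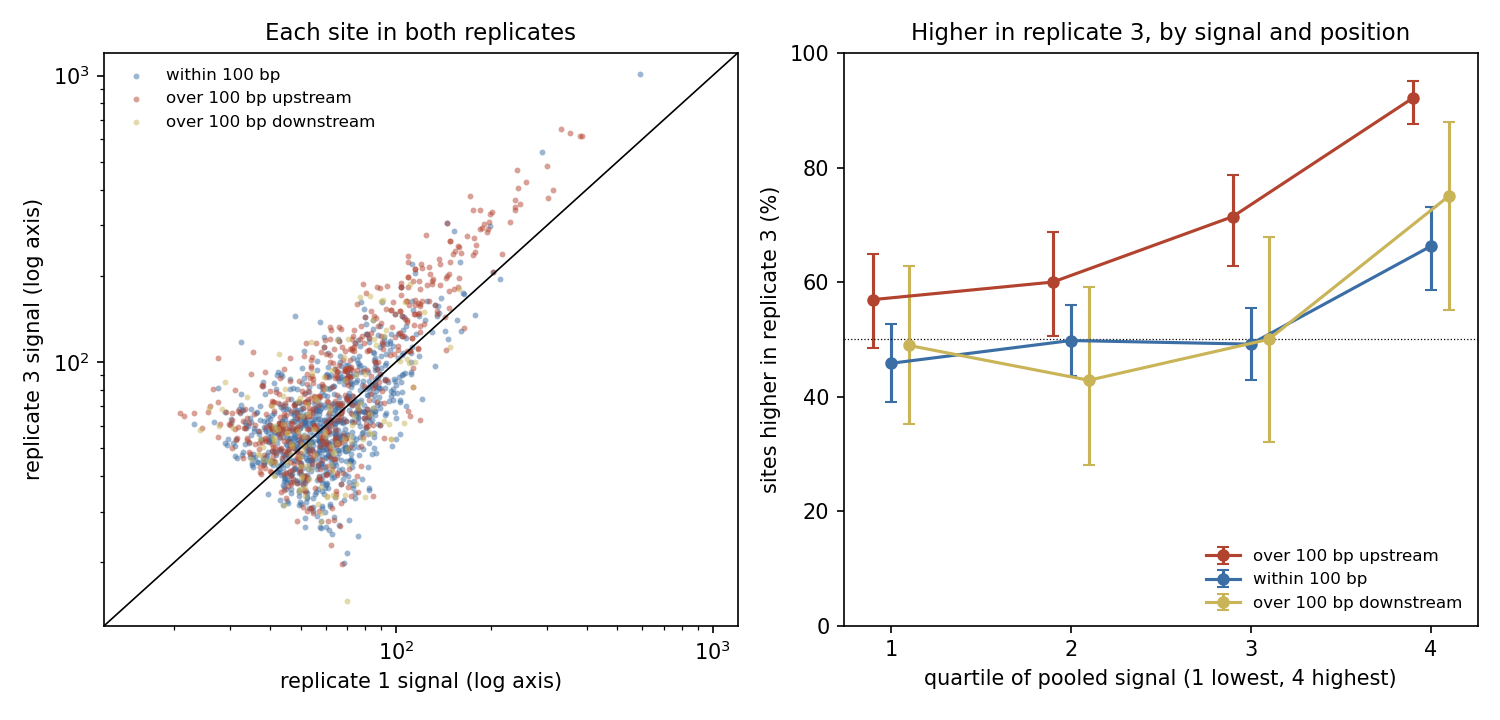
The left panel plots each single-gene site by its signal in replicate 1 and in replicate 3, both on log axes in the authors' units, with the line of equal values and colours for position. The right panel gives the share of sites higher in replicate 3 (%) by quartile of pooled signal and position, with Wilson 95% intervals. Upstream sites of the highest quartile reach 92.1%, and those within 100 bp reach 66.2%.

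Across the 1547 sites Spearman's rho between the replicates was 0.56 and Pearson's r on log2 values was 0.69. These describe sites that passed a cut on their pooled signal, which removes sites low in both replicates and so shapes the correlation. Of the 1554 sites, 1121 (72.1%, 69.9 to 74.3%) overlapped the 4492 highest regions of both replicates, against 72.7% of shared-promoter sites and 63.9% of peaks elsewhere. The share was 24.4% in the lowest quartile of pooled signal and 99.5% in the highest. The replicates differed most at Reph, with 70.1 in replicate 1 and 14.6 in replicate 3, and in the other direction at CG15628, with 27.4 and 103. At the corepressor gene CtBP the values were 62.2 and 22.9. A further 7 sites had no region in 1 replicate list, among them CG4497, which had a pooled signal of 254 and 104 in replicate 1.

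Motifs of the core promoter and of promoter-bound factors were counted in 201 bp around the summit, on either strand. These windows had a mean GC content of 42.1% (SD 7.32) at single-gene and 39.4% (SD 6.65) at shared-promoter sites. The part of GC content in the motif shares, here and below, was not tested. The GAGA letters GAGAG were in 31.3% of single-gene sites (29.1 to 33.7%), against 20.4% of shared-promoter sites, a difference of 10.95 points (7.63 to 14.2). Weaker single-gene regions had them at 31.1%, peaks elsewhere at 30.6%, all IDR peaks at 28.3% and windows around all eligible TSSs at 27.5%. Shared-promoter sites thus had the lowest share of these sets. Within 100 bp of the TSS the shares of single-gene and shared-promoter sites were 29.9% and 20.1%, and more than 100 bp upstream 34.8% and 19.8%. The strongest single-gene sites with GAGA letters were px (1004), CG18549 (714) and MFS10 (604).

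The DRE went the other way. TATCGATA was in 7.46% of single-gene sites (6.26 to 8.88%) and 13.9% of shared-promoter sites, a difference of -6.45 points (-8.89 to -4.09). It was in 3.75% of weaker regions, in 4.41% of eligible TSS windows and in 0.613% of peaks elsewhere. Within 100 bp of the TSS it was in 11.6% of single-gene and 16.8% of shared-promoter sites. Its strongest sites were at the mannosyltransferase gene Alg3 (407), at CG11151 (357) and at the elongation factor gene eEF1gamma (337). The shorter CGATA, which DRE matches contain and which is the core of the BEAF-32 insulator protein's element, was in 40.2% of single-gene and 49.5% of shared-promoter sites.

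Motif 1, GTCACACT, was in 5.21% of single-gene sites (4.21 to 6.43%) and 7.52% of shared-promoter sites, a difference of -2.31 points (-4.26 to -0.46). Within 100 bp of the TSS that difference was -1.19 points (-3.92 to 1.53), with motif windows cut to 50 bp either way -1.12 (-2.57 to 0.20) and at or above the median signal of the IDR list -1.02 (-3.45 to 1.27), and all 3 intervals include 0. Its strongest sites were at the translocation-associated protein gene TRAM (439), Nacalpha (269) and CG10068 (226). Of the 1554 sites 906 (58.3%) held none of the GAGA, DRE and motif 1 letters, and only 36 held letters of more than 1 of them. The median pooled signal was 115 at sites with GAGA letters, 117 at those with a DRE and 112 at those with motif 1, against 117 over all single-gene sites. Of the highest quartile by signal 29.6% held GAGA letters and 5.91% a DRE, and of the lowest 33.7% and 7.97%.

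Letters bound by known Groucho partners were counted in the same windows. CACGCG, the class C site of Hairy and E(spl) proteins, was in 8.62% of single-gene sites (7.32 to 10.1%), against 6.39% of shared-promoter sites, 6.97% of weaker regions and 6.77% of eligible TSS windows. Its strongest sites were at GstE13 (828), the translocon gene Trp1 (480) and TRAM. Among other partners' letters, TAATTA, bound by Engrailed and other homeodomain proteins, was in 9.20% of single-gene sites, 14.7% of shared-promoter sites and 8.47% of eligible TSS windows. The Brinker site GGCGCC was in 4.83%, the Runt site AACCACA in 2.32% and the TCF site CTTTGAT in 2.64% of single-gene sites. In eligible TSS windows these shares were 3.16%, 2.65% and 3.32%, and over all IDR peaks 4.01%, 2.72% and 2.89%. The Su(H) site GTGGGAA was in 2.45% of single-gene and 2.54% of shared-promoter sites. For the Snail site CAGGTG these shares were 6.24% and 6.74%, and for the Capicua site TGAATGAA 1.35% and 1.31%. The median signal of sites with TATA letters was 125, and these letters were in 28.3% of the highest quartile by signal and 16.7% of the lowest. Mean GC content was 39.98% and 43.0% in those quartiles. TATAAA was in 21.8% of single-gene and 27.6% of shared-promoter sites, against 26.5% of eligible TSS windows. The initiator letters TCAGT were in 37.6% and 32.9%, against 46.1% of TSS windows, which are centred on the TSS as the summit windows are not.

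**Figure D3:**
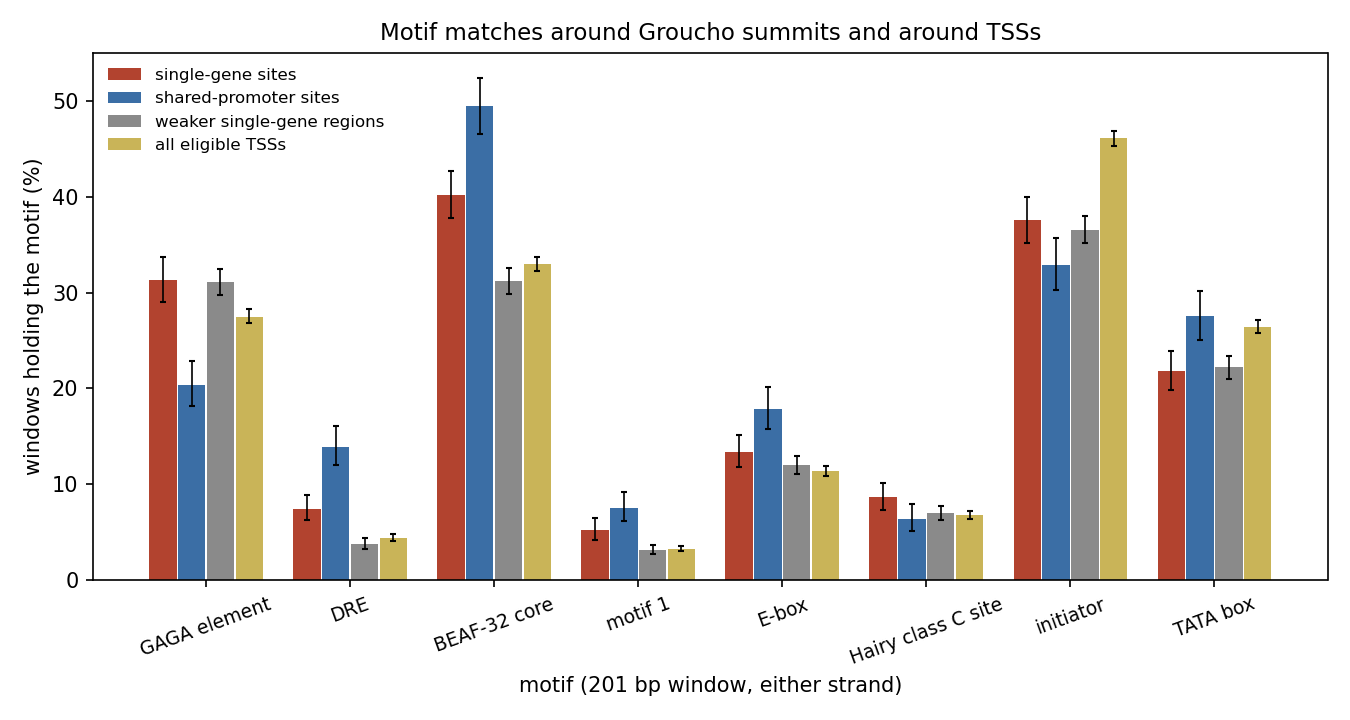
Bars give the share of 201 bp windows (%) that hold each motif, with Wilson 95% intervals, for single-gene sites, shared-promoter sites, weaker single-gene regions and all eligible TSSs. GAGA elements are in 31.3% of single-gene and 20.4% of shared-promoter sites, and the DRE in 7.46% and 13.9%.

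Motif positions were counted at the 1491 TSSs with a site. TSSs without a site were not profiled, so whether the positions differ there is unknown. In bins of 25 bp, by the middle of the match, GAGA letters were most frequent 75 to 50 bp upstream, in 199 promoters (13.3%), with a median of 4.26% over all bins. The DRE peaked 50 to 25 bp upstream, in 42 promoters (2.82%). Motif 1 and the initiator peaked in the first 25 bp from the TSS, in 39 (2.62%) and 327 promoters (21.9%). Motif 1 had 70.4% of its 142 matches on the gene's own strand. TATA letters were most frequent 200 to 175 bp upstream (6.51%), farther from the TSS than a working TATA box. A smaller rise lay near the TSS, with 3.09% at 50 to 25 bp and 3.42% at 25 to 0 bp upstream. The bins on either side had 1.61% (75 to 50 bp upstream) and 1.74% (0 to 25 bp downstream).

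**Figure D4:**
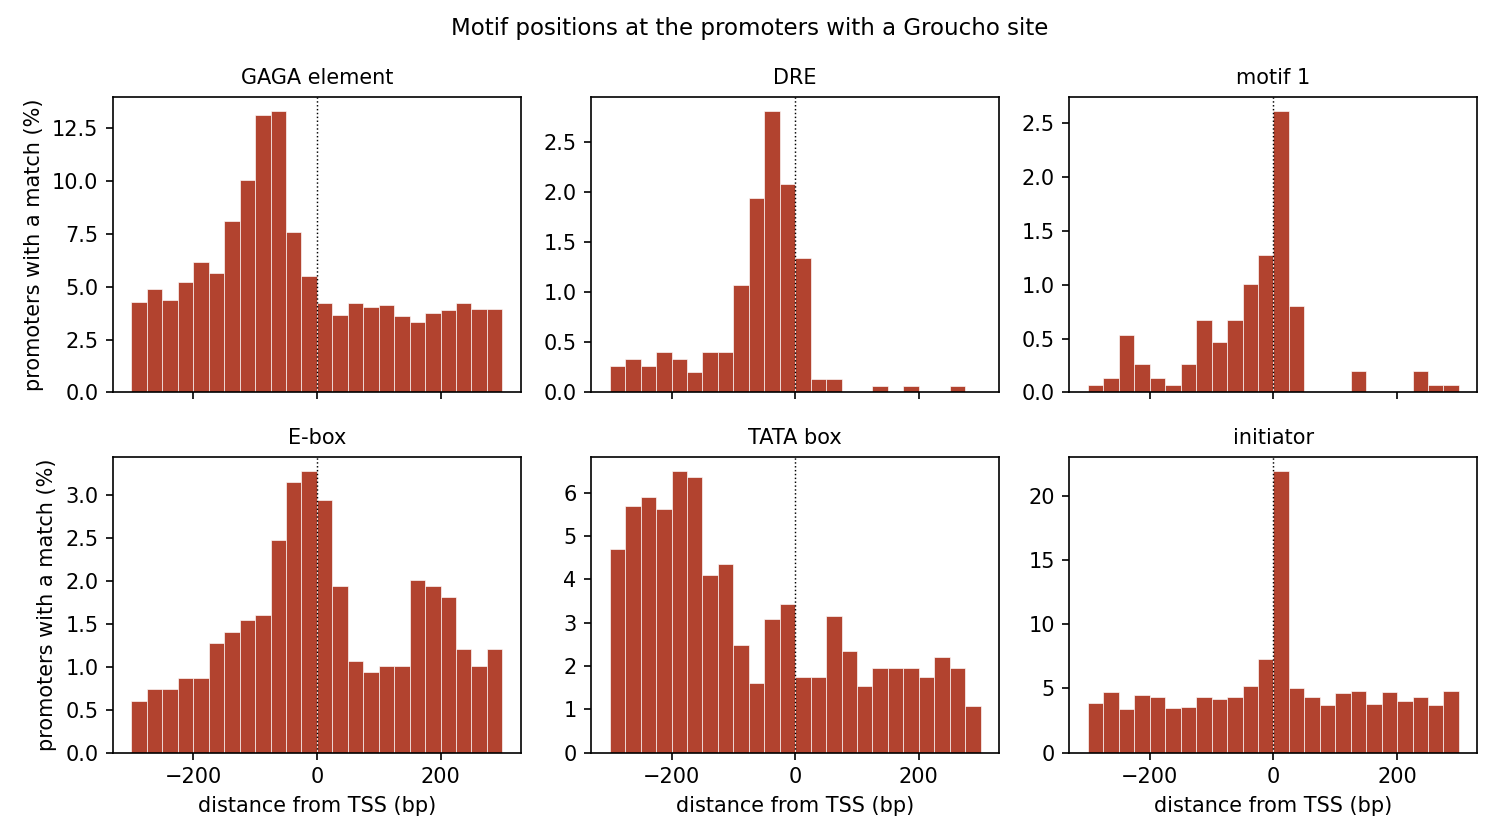
Each panel shows the share of the 1491 promoters with a Groucho site (%) that hold a match in each 25 bp bin, by distance from the TSS (bp, negative upstream). The GAGA element peaks 75 to 50 bp upstream at 13.3%, and the initiator in the first bin downstream at 21.9%.

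The genes were then read by pathway and function, with 32 lists chosen with earlier results of these data known. Of the 1073 genes in the lists 27 were in more than 1, among them hry, oc, brk and eIF4E1, so the lists are not fully separate counts. The share of all eligible genes with a site, 13.3%, is the background for each list. A gene said to have no site had no IDR peak that met the rule. Shared-promoter sites, peaks elsewhere and weaker regions were not counted for the listed genes. Such a gene may thus still hold a Groucho peak. The interval of the share lay above it in 12 lists, among them growth control, chromatin and signalling, and included it in 16. The interval lay below it in 4 lists: cuticle proteins, odorant and gustatory receptors, Dpr and DIP proteins and cytochromes P450. Of the 12 lists, the E(spl) and corepressor lists lay only just above it, with intervals from 13.8 and 13.7%. From the 4492 highest regions of replicate 3 alone (without replicate 1) those 2 lists had intervals that include that setting's background of 12.8%, with 2 of 12 and 2 of 8 genes. From those of replicate 1 alone (without replicate 3) the E(spl) list did. Other lists moved up without replicate 1. The Notch (5 of 15) and dorsal-ventral (6 of 19) lists then had intervals above the 12.8%, as did the GATA (3 of 6) and cytoskeletal (8 of 24) lists. Among sites at or above the median signal of the IDR list, where the background was 7.14%, the interval stayed above it in 7 of the 12 and included it for the E(spl), Dpp, ecdysone, cell cycle and translation factor lists. Listed genes differ in length and number of TSSs, and their part in these shares was not tested.

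In the insulin, TOR and growth list 11 of 18 eligible genes (61.1%, 38.6 to 79.7%) had a site. The highest were REPTOR (346), a transcription factor of the TOR response, melt (223), Thor (216), the 4E-BP gene, bun (213) and the insulin receptor gene InR (190). At Thor replicates 1 and 3 gave 85.0 and 130, and at InR 80.5 and 125. The list also held sites at Pdk1 (171), foxo (125) and chico (113), so receptor, kinase and transcription factor genes of the pathway were among them. The median of their highest signals was 182, and that of all 1365 genes was 120.

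The Polycomb and Trithorax group had sites at 11 of 20 eligible genes (55.0%, 34.2 to 74.2%). Besides ph-p these were led by Psc (174) and Su(z)2 (165), subunit genes of Polycomb complexes, jing (162) and the chromodomain helicase gene kis (160). The neighbouring ph-d gene had 98.5. The highest sites of 9 of the 11 genes were within 100 bp of the TSS.

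Signalling pathways known for Groucho targets held sites at some of their genes. In the Dpp list 8 of 17 genes (47.1%, 26.2 to 69.0%) had a site. The zinc finger gene shn, a partner in Dpp-dependent repression, was highest (411 at -195 bp), with 203 in replicate 1 and 206 in replicate 3. The glypican gene dally (156), the antagonist gene sog (115), cv-2 (113) and the repressor gene brk (108) followed. The ligand gene dpp had no site. At or above the median signal of the IDR list 2 of the 17 genes had one.

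The Wingless list had 7 of 19 genes (36.8%, 19.1 to 59.0%) with a site. The kinase gene gish led with 530, followed by the GSK3 kinase gene sgg (401), the feedback inhibitor nkd (201), CkIalpha (168) and the co-receptor gene arr (155). The Frizzled receptor genes fz and fz2 had a site, with 109 and 140. The Wnt ligand genes Wnt2, Wnt4, Wnt5, Wnt6 and wg had none.

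In the EGFR, FGF and Ras list 8 of 25 genes (32.0%, 17.2 to 51.6%) had a site. The EGFR ligand gene spi was highest (424 at -167 bp), with 148 in replicate 1 and 265 in replicate 3. The ETS repressor gene aop (148), the phosphatase gene csw (147), the FGF ligand gene bnl (138) and the ETS activator gene pnt (117) followed. The receptor genes Egfr, btl and htl had none. Hippo and JNK genes had sites at 8 of 20 (40%), led by kibra (183), Mer (171) and puc (158).

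Lists of genes for Groucho's DNA-binding partners had shares on either side of the 13.3% of all eligible genes. The E(spl) and hairy-type list had sites at 4 of 12 eligible genes (33.3%, 13.8 to 60.9%). E(spl)mbeta-HLH had 139, cwo 107, hry 99.8 and E(spl)m3-HLH 97.8, so only E(spl)mbeta-HLH was above the median of all single-gene sites. In replicates 1 and 3 E(spl)mbeta-HLH had 70.1 and 74.8, and hry had 60.4 and 37.6. In the Notch list 4 of 15 genes (26.7%) had a site, Nedd4 (174), mib1 (129), N (114) and mam (99.97). Of the other repressors known to recruit Groucho 3 of 31 (9.68%, 3.35 to 24.9%) had a site, bowl (200), brk (108) and oc (95.2), a share below 13.3% whose interval includes it. Those without included eve, run, en, sna and dl. From the 4492 highest regions of replicate 3 alone (without replicate 1) the E(spl) list had 2 genes with a site, and from those of replicate 1 alone (without replicate 3) the other repressors had 6.

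Among 8 eligible corepressor genes gro (682), the histone deacetylase scaffold gene Sin3A (313) and CtBP (80.9) had a site, and CoRest, Gug, HDAC1, Lsd-1 and Smr had none. Among 6 GATA factor genes and their cofactor ush, ush (219 at -61 bp) and grn (101) had a site, and GATAd, GATAe, pnr and srp had none. Of 8 JAK-STAT genes 1 had a site, Stat92E (140), a share of 12.5% (2.24 to 47.1%) near the 13.3% of all eligible genes. Ptp61F, Socs36E, Su(var)2-10, et, upd1, upd2 and upd3 had none. Patterning genes of other lists had intervals that include the background. Gap, terminal and pair-rule genes had 4 of 21 (2 without replicate 1) and Hox genes and cofactors 1 of 11 (hth, 93.2). Dorsal-ventral genes had 5 of 19, led by the IκB gene cact (298). Without replicate 1 the dorsal-ventral list had 6 of 19, with an interval above that setting's background. Neuronal fate genes had 3 of 24 (12.5%), led by elav (347), and mesoderm and muscle genes 3 of 22 (13.6%), shares near the background.

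Cytosolic ribosomal protein genes held sites close to the TSS. Of 55 eligible cytosolic ribosomal protein genes 22 (40%, 28.1 to 53.2%) had a site, with 1 site each. All 22 summits were within 100 bp of the TSS, against 774 of the highest sites of all 1365 genes. Their median signal was 193. RpL23A (386), RpL11 (298), RpL24 (286), RpS4 (270) and RpS29 (245) were highest. In replicates 1 and 3 RpL11 had 155 and 140, RpL24 had 137 and 149 and RpS4 had 143 and 128, so neither replicate was always the higher. Translation factors had sites at 9 of 21 genes (42.9%), led by eEF1gamma (337) and eEF1alpha1 (192); 8 of their 9 summits were within 100 bp of the TSS. Of 19 eligible mitochondrial ribosomal protein genes 1 had a site, mRpL19 (86.1), with 0 without replicate 1 and 3 without replicate 3. The share was 5.26% (0.94 to 24.6%), and its interval includes the background.

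Cell cycle genes had sites at 8 of 19 (42.1%, 23.1 to 63.7%), led by the kinase gene polo (162), tws (137) and CycA (122). Ecdysone response genes had 6 of 18 (33.3%, 16.3 to 56.3%), led by the nuclear receptor gene Eip75B (287), E23 (231) and ftz-f1 (147). Proteasome genes had 6 of 24, cytoskeletal genes 6 of 24, insulator protein genes 3 of 13, V-ATPase genes 3 of 23 and Rab genes 2 of 20. Chaperone genes had 3 of 17, the small heat shock genes Hsp27 (336) and Hsp26 (172) and the DnaJ-type gene Droj2 (129).

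The cuticle protein, odorant and gustatory receptor, Dpr and DIP, and cytochrome P450 families were nearly empty. Cuticle protein genes had 0 sites at 117 eligible genes, which allows a share of up to 2.56% by a limit of 3 counts and 3.18% by the Wilson interval. There were 0 at 104 odorant and gustatory receptor genes, with limits of 2.88 and 3.56%. The Dpr and DIP cell recognition genes of neurons had 0 at 32, with limits of 9.38 and 10.7%. Cytochrome P450 genes had 2 of 82 (2.44%, 0.67 to 8.46%), Cyp4e2 (89.2) and Cyp9f3 (88.1), and there were 0 without replicate 1 and 1 without replicate 3. The median gene in each of these families had 1 TSS. Among all eligible genes with 1 TSS 8.58% had a site, from 2.80% in the shortest quartile by span to 18.1% in the longest. The Wilson intervals of these families include the 2.80%. The lengths of their genes were not examined, and the part of gene length was not tested.

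**Figure D5:**
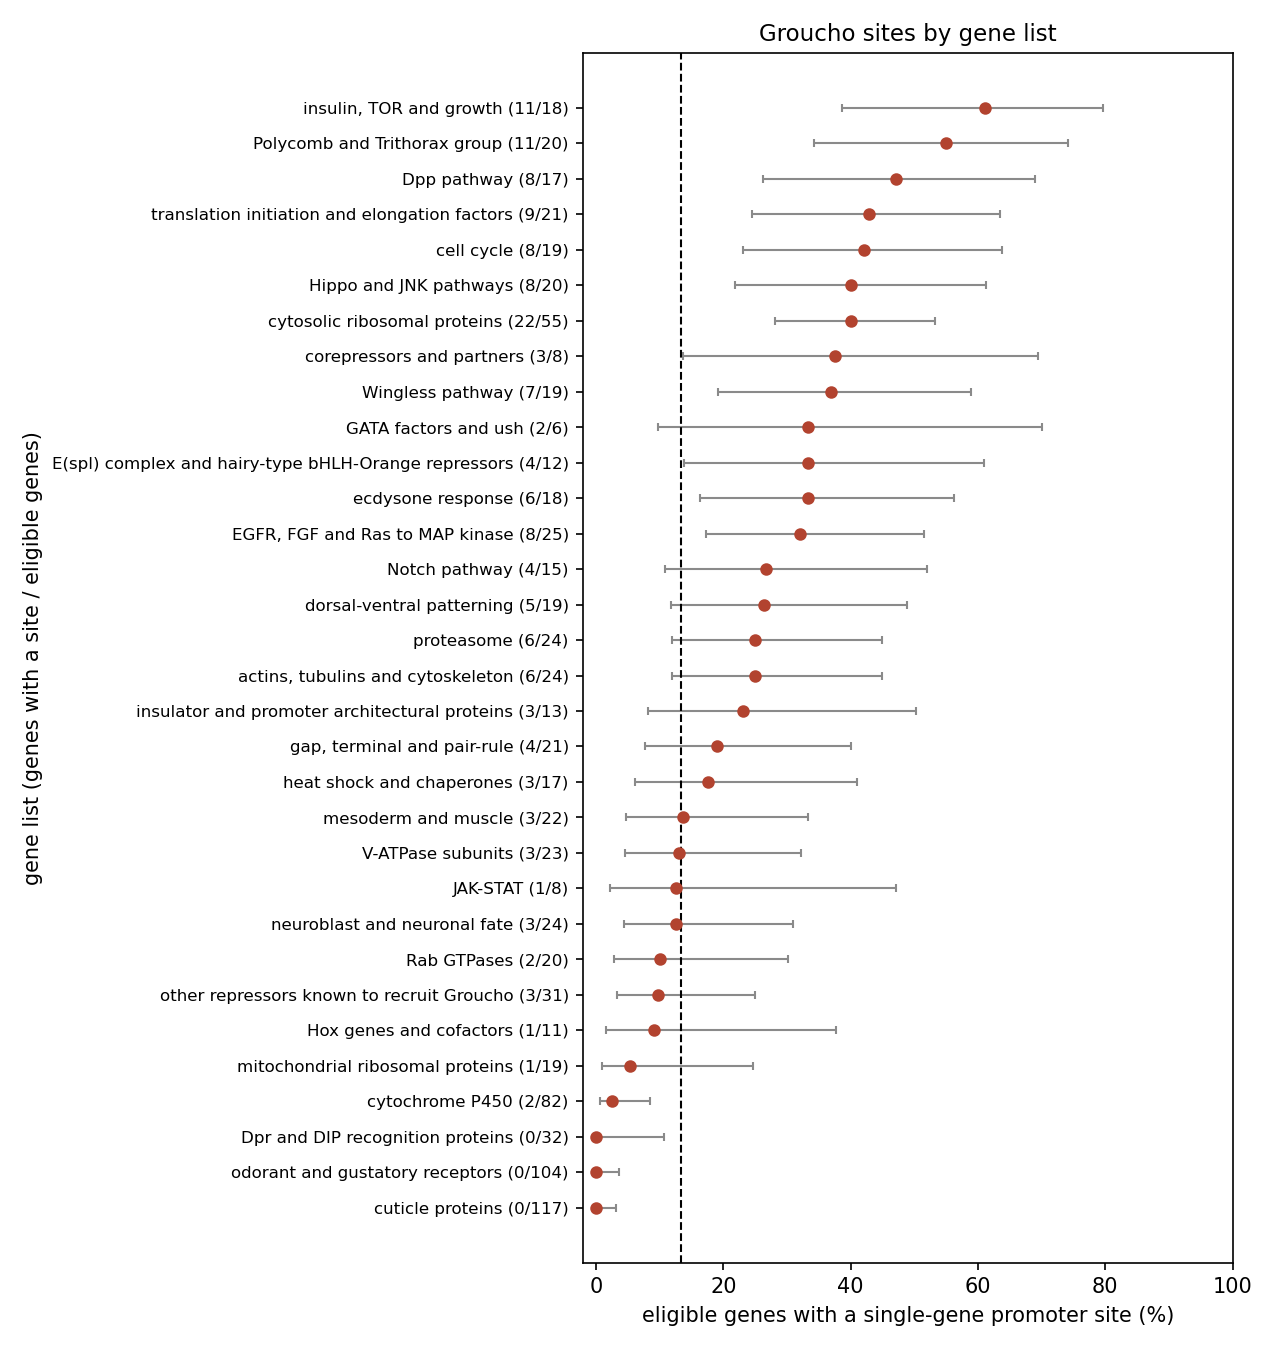
For each gene list, the point gives the share of eligible genes with a single-gene promoter site (%) and the bar its Wilson 95% interval, with genes with a site and eligible genes in brackets. The dashed line is the 13.3% of all eligible genes. Insulin, TOR and growth genes reach 61.1%, and cuticle and receptor genes stay at 0.

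The sites nearest to 500 bp inside the limit were at B4 (500 bp, pooled signal 83.3) and mirr (499 bp, 137), and the nearest outside it at jar (504 bp, 195) and CG31612 (506 bp, 327). At the 1 kb limit Rab1 (88.0) and EMC2B (107) were kept, with another gene's TSS at 1002 and 1005 bp. The peaks at CG7006 (206) and Neb-cGP (143), with another TSS at 998 and 993 bp, counted as shared.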

How the data were processed

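Per the deposited manifest, the authors called 30000 regions from each replicate's alignment with a control, called 30000 more from both alignments pooled, and derived the IDR list from these 3 lists. The control was not analysed here. For the aligner, peak caller and IDR threshold, nothing is given in the sources used here. Each signal in a list is the authors' deposited value, of no stated scale, and the other deposited score, a summit offset, gave the summit. The dm6 lists alone were used.

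TSSs came from Ensembl release 115 and sequence from RefSeq Release 6 (dm6). A site took the highest signal among replicate regions that overlapped it by at least 1 bp, and 2 replicate 3 summits lay 1 base past their region's end. Motifs were exact matches within 100 bp on each side of the summit. Python 3.11.15, numpy 2.4.6, pandas 2.3.3 and scipy 1.17.1 were used, and scripts were tested on simulated data.

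Shares have Wilson intervals, differences of shares Newcombe intervals and medians order-statistic intervals, all at 95%, and a share of 0 also has a limit of 3 counts; with 1 group there is no test between groups. Sites and gene lists were chosen with earlier results of these data known. Named genes are those of the 20 highest sites, the 5 with most sites (ties broken by signal), up to 5 per list (lists of at most 10 eligible genes in full), those at each limit and up to 3 per motif; Pdk1, foxo, ps, cnc, lola, chico, ph-d, fz, fz2 and genes named for a replicate difference or for having no site were added after their values were seen. List symbols were matched by current symbol or a synonym of 1 gene, so that h became hry. Alternatives changed the distance limits, gene models, list, overlap and motif window.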

Additional observations from a re-analysis of the deposited data

How the results depend on the processing

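With the TSS limit at 250 bp, 34.9% of sites were downstream, the median distance was 65 bp, 56.9% were higher in replicate 3 and 12.6% of eligible genes had a site. At 1000 bp the values were 35.0% downstream, 125 bp and 12.1% of genes. The share of genes was 12.2% with other genes barred within 500 bp only and 12.5% with genes of any biotype barred. With only the most upstream TSS of each gene it was 11.5%, with 35.7% of sites downstream. Among sites in the upper part of the IDR list, at or above its median signal, 789 sites at 732 genes were left (7.14% of eligible genes), of which 25.7% were downstream. Their median distance was 94 bp, their median signal 156, and 68.1% were higher in replicate 3 and 97.2% in both top lists. With an overlap of 50% of both regions the replicate shares were 56.4% and 61.2%. With 1 site per gene the median signal was 120. Motif windows of 50 bp on each side gave 17.1% for GAGA, 4.76% for the DRE and 2.64% for motif 1, with differences from shared-promoter sites of 6.62, -3.46 and -1.12 points (the last -2.57 to 0.20). Windows of 150 bp gave 44.5% for GAGA, 7.08% for motif 1 and a GAGA difference of 17.5 points. Limiting both classes to summits within 100 bp of the TSS, chosen after seeing the data, gave 11.6% for the DRE and 8.22% for motif 1. The 4492 highest regions of 1 replicate alone gave 1500 to 1583 sites and a median distance of 83 to 93 bp; pooled signal and replicate shares have no value there. The GAGA, DRE and motif 1 differences from shared-promoter sites kept their sign in the alternatives run for them; differences of position and between replicates were not rerun. Of 117 values 84, and of 128 gene-list counts 102, moved by less than their interval or by at most 1.5 times. In the upper part of the IDR list, cytosolic ribosomal protein genes with a site fell to 14, translation factors to 3, cell cycle genes to 3, Dpp genes to 2 and gap, terminal and pair-rule genes to 0. No paired analysis was possible because there is 1 group with no other to pair it with. Read depth is unknown.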

Other observations

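Counts of all 7-letter words in the same windows, on both strands, gave the following as values with no explanation; the words were chosen after their values were seen. ACTATCG was in 8.43% of single-gene sites and 3.16% of weaker single-gene regions, and AGTGTTG in 8.24% and 3.38%. AACACTG was in 8.04% of single-gene sites and 3.31% of weaker regions, and neither it nor AGTGTTG is part of the motifs searched. CGCTCTC was in 8.62% of single-gene and 3.24% of shared-promoter sites, and CACACAC in 9.91% and 5.86%.

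The E-box CAGCTG, listed as a core promoter motif, was most frequent 25 to 0 bp upstream of the TSS, in 49 of the 1491 promoters with a site (3.29%). A lower rise lay 150 to 175 bp downstream, in 30 promoters (2.01%), against 15 promoters (1.01%) 100 to 125 bp downstream.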
